A study of Mus musculus with 34 samples.

Results

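The 10 genes followed here, S100a8, S100a9, Lcn2, Saa3, Hp, Chil1, Retnlg, Ngp, Camp and G0s2, encode the calprotectin subunits, acute-phase proteins and other products that neutrophils carry. They were taken by name from the 32285 genes of the deposited single-cell tables, and all 10 were found there. Each was read in 4 libraries of CD45-positive cells, in 6 libraries of CD4/8-positive T cells and in 1 pooled table of cells from tumours. The tumours were MMTV-Wnt1 mammary tumours, in which the mouse mammary tumour virus promoter drives the Wnt1 oncogene, grown as transplants in C57BL6j mice. In the doxorubicin CD45 group (2 libraries) the mice had received 5 doses of 4 mg/kg doxorubicin, an anthracycline that damages DNA, and the tumours were taken 48 h after the last dose. In the untreated CD45 group (2 libraries) the mice carried the same transplants and received no drug. The T cell sorts had 1 library each. In 4 of them doxorubicin was followed, from 48 h on, by 3 antibody doses 72 h apart (anti-PD1 with IgG, anti-CTLA4 with IgG, both antibodies, or IgG alone) and harvest 24 h after the last. The other 2 were doxorubicin with harvest at 48 h, and untreated. The pooled table goes with a doxorubicin sample (5 doses of 4 mg/kg, harvest at 48 h) and an untreated sample. Nothing in the labels says that replicate libraries came from separate mice, or how many mice each held, so p-values measure only the spread between libraries.

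S100A8 and S100A9 pair into calprotectin, which binds calcium and zinc, makes up much of the neutrophil's cytosolic protein and signals through Toll-like receptor 4 when released. Lipocalin-2, serum amyloid A3 and haptoglobin are acute-phase proteins, which bind bacterial siderophores, act as an apolipoprotein of inflamed tissue and capture free haemoglobin; in mice Saa3 is made mainly outside the liver. Chil1 encodes a secreted chitinase-like protein, Retnlg a resistin-like secreted protein, and G0s2 an inhibitor of adipose triglyceride lipase. Ngp and Camp encode secondary granule proteins, whose messages are made by neutrophil precursors in the marrow and have largely gone from mature blood neutrophils.

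The bases before the start of 4 genes are shown, as examples of where the message lay: S100a8 and S100a9 in neutrophils, Lcn2 in tumour cells, and Saa3 in a few cells of several kinds. S100a8 lies on chromosome 3 at 90669071 to 90670034 on the plus strand and S100a9 at 90692630 to 90695721 on the minus strand, 22.6 kb apart, each with 3 exons in the RefSeq annotation of GRCm38.p6. Lcn2 lies on chromosome 2 at 32384637 to 32387739, and Saa3 on chromosome 7 at 46711998 to 46719615, both on the minus strand. The windows are chr3:90668821-90669070 on the plus strand for S100a8, and chr3:90695722-90695971, chr2:32387740-32387989 and chr7:46715677-46715926 on the minus strand for S100a9, Lcn2 and Saa3; that of Saa3 precedes an annotated start inside the gene's span. Each sequence is the 250 bases upstream of the start, from RefSeq, with capitals for a match to a motif searched on both strands.
S100a8: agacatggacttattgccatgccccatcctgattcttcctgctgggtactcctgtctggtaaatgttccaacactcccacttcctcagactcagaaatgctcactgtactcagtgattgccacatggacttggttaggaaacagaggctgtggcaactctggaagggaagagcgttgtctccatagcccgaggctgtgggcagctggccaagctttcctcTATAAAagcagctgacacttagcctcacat
S100a9: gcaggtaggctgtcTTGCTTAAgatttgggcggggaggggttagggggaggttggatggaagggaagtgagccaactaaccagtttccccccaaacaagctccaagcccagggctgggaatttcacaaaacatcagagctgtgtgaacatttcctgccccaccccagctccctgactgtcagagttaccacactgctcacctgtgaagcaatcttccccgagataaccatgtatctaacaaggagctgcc
Lcn2: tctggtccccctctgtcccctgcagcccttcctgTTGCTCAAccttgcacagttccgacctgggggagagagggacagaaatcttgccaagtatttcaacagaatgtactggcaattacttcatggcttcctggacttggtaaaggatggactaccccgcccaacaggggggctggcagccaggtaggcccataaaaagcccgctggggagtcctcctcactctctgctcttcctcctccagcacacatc
Saa3: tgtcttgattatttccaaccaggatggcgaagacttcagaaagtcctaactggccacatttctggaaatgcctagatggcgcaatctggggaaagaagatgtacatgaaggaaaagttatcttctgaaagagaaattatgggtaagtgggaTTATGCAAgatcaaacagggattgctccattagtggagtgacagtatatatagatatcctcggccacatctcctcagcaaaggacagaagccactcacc
The capitals in S100a9, Lcn2 and Saa3 are matches to the C/EBP motif TTGCNNAA, and those in S100a8 are the TATA box TATAAA, 30 bases before the start. Of the 9 members with an entry, 5 (S100a9, Lcn2, Saa3, Retnlg and Ngp) held the C/EBP letters, which occur in 9.56% of 32851 RefSeq promoters of the same length. The TATA letters were found in 1 member and in 12.4% of promoters. Neither the STAT motif TTCNNNGAA nor the NF-kappaB motif was found in a member; 7.02% and 1.41% of promoters hold them. Each window shown holds 1 match, and a match is a run of letters, not a bound site.

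The CD45 libraries held 16908180 and 35199903 unique molecular identifiers (UMIs, each 1 captured transcript) with doxorubicin and 69108468 and 36558187 untreated. After removal of barcodes under 500 UMIs, under 200 genes or at 20% or more mitochondrial UMIs, 1480 and 3996 doxorubicin cells and 3581 and 1797 untreated cells remained. Cells were placed in classes by marker lists that hold none of the 10 genes. Gated epithelial tumour cells made up 6.62% and 6.46% of the doxorubicin cells and 16.8% and 10.4% of the untreated cells despite the CD45 sort. The CD45 gene Ptprc stood at 0.0318 to 0.134 UMIs per 10000 in these tumour cells, against 8.10 to 11.2 in gated neutrophils. In the T cell sorts, gated T cells made up 52.8% to 87.7% of cells. Barcodes of the sorted libraries were not compared between libraries.

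In the CD45 libraries taken whole, 7 of the 10 genes rose with doxorubicin and none fell (S100a8, S100a9, Saa3, Hp, Chil1, Retnlg and G0s2). The test was edgeR's quasi-likelihood test with Benjamini-Hochberg adjustment over all 16089 genes tested, of which 5.44% were called at an adjusted p of 0.05, 3.19% as risers and 2.24% as fallers. The median log2 change was 3.67 over the 10 genes and -0.02 over all genes tested. In a whole library, more neutrophils and more message per neutrophil cannot be told apart.

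S100a8 stood at 90.2 and 74.0 UMIs per 10000 in the doxorubicin libraries and at 3.12 and 5.45 in the untreated libraries, a log2 change of 4.14 ± 0.37 (SE). S100a9, its partner, stood at 97.0 and 59.8 with doxorubicin and at 4.25 and 5.40 untreated (3.91 ± 0.36). The doxorubicin libraries were the higher ones for both subunits, with no overlap. G0s2 had 8.15 and 8.80 UMIs per 10000 with doxorubicin and 0.438 and 0.515 untreated (4.03 ± 0.24). Chil1 had 1.68 and 1.69 against 0.0574 and 0.0818 untreated (4.48 ± 0.28). Saa3 had the highest fitted log2 change of the 10, 4.67 ± 0.32, with 4.64 and 4.07 in doxorubicin libraries and 0.193 and 0.123 in untreated libraries. Hp changed by 3.34 ± 0.23 and Retnlg by 3.43 ± 0.49. Adjusted p-values of the 7 lay between 0.00970 and 0.0253. Without untreated library 1 the Retnlg call was lost (adjusted p = 0.0795), and the other 6 calls held without each library in turn.

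Lcn2 stood apart from these. It had 20.2 and 21.0 UMIs per 10000 in the doxorubicin libraries and 14.6 and 14.9 in the untreated libraries, which did not overlap, but the change of 0.36 ± 0.19 did not pass the test (adjusted p = 0.289). Ngp, with 0.0390 and 0.0230 in doxorubicin libraries and 0.0192 and 0.119 in untreated libraries, and Camp, with 0.0106 and 0.0108 against 0.00275 and 0.0309, overlapped between the groups and did not pass.

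**Figure D1:**
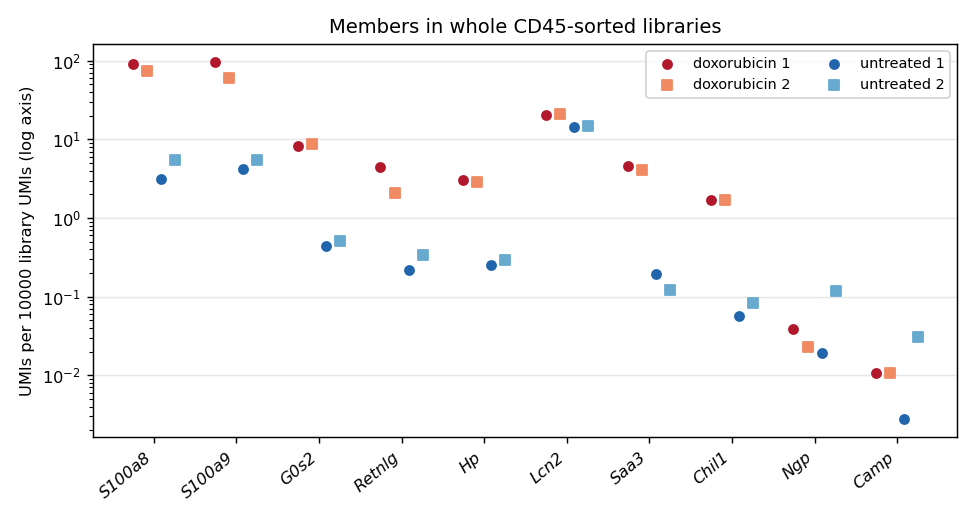
Level of each gene in the 4 whole CD45 libraries, in UMIs per 10000 library UMIs on a log axis, 1 point a library. For S100a8 the doxorubicin points sit at 90.2 and 74.0 and the untreated points at 3.12 and 5.45; Ngp and Camp overlap between the groups.

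Gated neutrophils were 53.0% and 45.0% of the cells in the doxorubicin libraries (785 and 1797 cells) and 10.2% and 6.07% in the untreated libraries (366 and 109 cells). The means were 49.0 ± 5.71% with doxorubicin and 8.14 ± 2.94% untreated (SD, n = 2 each), a difference of 40.9 points. The exact permutation test gave p = 0.333, the smallest that 2 libraries against 2 allow. In UMIs the neutrophils' share was 26.2% and 20.6% with doxorubicin and 2.03% and 1.06% untreated. The median neutrophil held 4983 and 3152 UMIs with doxorubicin and 2995 and 3128 untreated, and the median macrophage of the same libraries 8280 to 14432.

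The difference in each gene's level was split into a part from the neutrophils' share of UMIs, a part from the level within neutrophils, and the rest, from all other cells. Shares and levels were weighed at the mean of the 2 groups. At these weights the share part was the largest for 5 genes: 98.9% of the difference for Retnlg, 78.2% for S100a9, 72.7% for S100a8, 65.9% for G0s2 and 55.1% for Hp. The level part reached 26.0% for G0s2 and 20.6% for Hp, and was 15.2% for S100a8 and 9.36% for S100a9. The level part rests on single libraries: that of S100a8 was -0.034% without untreated library 1 and 29.95% without untreated library 2, and that of S100a9 was -2.10% and 20.7%. Other cells held the largest part for the remaining 3, with 67.3% for Saa3, 50.9% for Lcn2 and 46.4% for Chil1. The split has no test, and the order of the parts depends on the weights. An alternative took the share part at untreated levels and the level part at doxorubicin shares. There the level part was the largest for G0s2 (48.5%, share 43.4%) and Hp (38.5%, share 37.1%). The reverse took the share part at doxorubicin levels and the level part at untreated shares. There the share part was the largest for Chil1 (50.98%, other cells 46.4%). Without doxorubicin library 2, at the mean of the 2 groups, the share part was the largest for Lcn2 (48.2%, other cells 34.2%). For S100a8, S100a9 and Retnlg the share part, and for Saa3 the part of other cells, was the largest at each of these weights, under the stricter gate and without each library in turn. The median share part over these 8 genes was 60.5%, but 40.3% at untreated levels and 79.2% at doxorubicin levels. For Ngp and Camp the difference is close to 0 and no percentage is given.

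**Figure D2:**
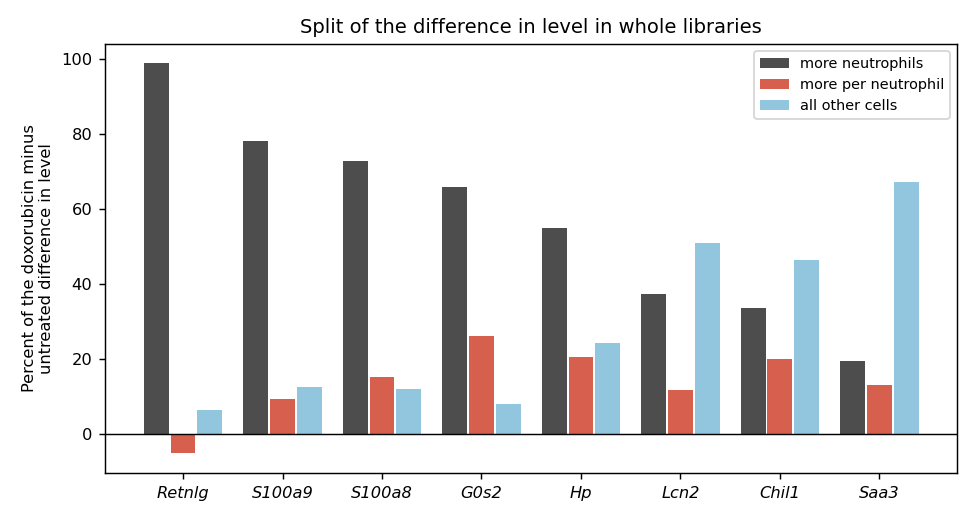
Percent of the doxorubicin minus untreated difference in level that came from the neutrophils' share of UMIs, from the level within neutrophils and from all other cells, 3 bars a gene, weighed at the mean of the 2 groups. The share bar is the tallest for Retnlg, S100a9, S100a8, G0s2 and Hp, and the bar of other cells for Lcn2, Chil1 and Saa3; at other weights or without 1 library the order changes for G0s2, Hp, Chil1 and Lcn2.

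Within gated neutrophils, 1 of the 10 genes was called. Saa3 rose, with 6.62 and 5.26 UMIs per 10000 neutrophil UMIs in the doxorubicin libraries and 1.63 and 1.50 in the untreated libraries, a log2 change of 1.80 ± 0.35 (adjusted p = 0.0317). Of 9059 genes tested in neutrophils, 1.05% were called, 0.199% as risers and 0.850% as fallers. Without untreated library 1 or 2 the Saa3 call was lost (adjusted p = 0.194 and 0.111), while its log2 change lay between 1.61 and 2.01 without each library in turn.

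Calprotectin did not pass in neutrophils. S100a8 stood at 298 and 318 UMIs per 10000 in doxorubicin neutrophils and at 120 and 307 in untreated neutrophils (log2 change 0.33 ± 0.53). S100a9 stood at 317 and 260 with doxorubicin and at 170 and 304 untreated (0.11 ± 0.49). The neutrophils of untreated library 1 were the low ones, and those of untreated library 2 lay among the doxorubicin values. Retnlg, with 15.7 and 8.98 against 8.34 and 19.8 untreated, and Lcn2, with 14 and 10.9 against 3.37 and 11, overlapped in the same way. The 10 genes together took 6.93% and 6.54% of neutrophil UMIs with doxorubicin and 3.21% and 6.84% untreated.

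Chil1, Hp and G0s2 did not pass the adjusted test in neutrophils. Chil1 had 3.76 and 3.85 UMIs per 10000 in doxorubicin neutrophils and 0.788 and 1.58 in untreated neutrophils (1.56 ± 0.41, adjusted p = 0.112). Chil1 passed under DESeq2 (adjusted p = 0.0227), and in edgeR without doxorubicin library 1 (0.0176), doxorubicin library 2 (0.0149) or untreated library 2 (0.0470). Hp had 8.87 and 9.36 against 4.17 and 5.05 untreated (0.83 ± 0.35, adjusted p = 0.336). G0s2 had 29.2 and 37.1 against 12.6 and 19.2 untreated (0.88 ± 0.41, adjusted p = 0.393).

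At a matched depth of 1000 UMIs a cell, neutrophils with at least 1 Chil1 UMI were 23.1% and 27.7% with doxorubicin and 5.29% and 13.4% untreated. The unthinned shares were 51.2% and 50.3% with doxorubicin and 16.9% and 23.9% untreated. The Hp shares at that depth were 43.0% and 44.2% with doxorubicin and 20.1% and 22.7% untreated, and those of S100a8 were 91.9% and 93.5% with doxorubicin and 74.9% and 79.4% untreated. Thinned T cells of the same libraries, which should lack S100a8, gave 11.5% and 22.9% with doxorubicin and 0.680% and 3.58% untreated. For Chil1 they gave 0% and 2.60% with doxorubicin and 0.113% and 0.358% untreated.

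Saa3 in neutrophils was held by few cells. At matched depth 12.6% and 10.3% of doxorubicin neutrophils and 4.74% and 7.22% of untreated neutrophils had a Saa3 UMI. In the doxorubicin libraries 10 of 785 and 25 of 1797 neutrophils held 50% of all neutrophil Saa3 UMIs, and in the untreated libraries 3 of 366 and 2 of 109 did. With the highest cell of each library left out the Saa3 change was 2.20 (adjusted p = 0.0141).

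Ngp and Camp, the precursor granule messages, were held by few cells. Ngp stood at 0.143 and 0.102 UMIs per 10000 in doxorubicin neutrophils and at 0.188 and 11.1 in untreated neutrophils. The high value came from 1 cell of untreated library 2, with 421 of the 427 Ngp UMIs, all 113 Camp UMIs, 93 UMIs of the secondary granule gene Ltf and 0 of the primary granule genes Elane and Mpo. The remaining neutrophils with 3 or more Ngp UMIs numbered 7 and 4 in the doxorubicin libraries and 1 and 1 in the untreated libraries. Ngp also lay outside the gate: untreated library 1 had 133 Ngp UMIs in all, 78.2% of them in ungated cells, of which 1 cell held 3 or more. Of 949 Ngp UMIs in the pooled table, ungated cells held 70.1% and neutrophils 29.6%.

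Among neutrophils of 1 library, described only as rank correlations over cells that share a library and depth, the calprotectin subunits moved together (Spearman 0.851 and 0.879 in doxorubicin libraries, 0.837 and 0.910 in untreated libraries). S100a8 was correlated with Retnlg at 0.301 to 0.582 and with Lcn2 at 0.221 to 0.584. Saa3 had values from -0.0894 to -0.0256 with S100a8. The median neutrophil had 149 and 218 S100a8 UMIs per 10000 in the doxorubicin libraries and 43.4 and 111 in the untreated libraries. In doxorubicin library 1, 10% of neutrophils lay under 7.99 and 10% over 669.

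**Figure D3:**
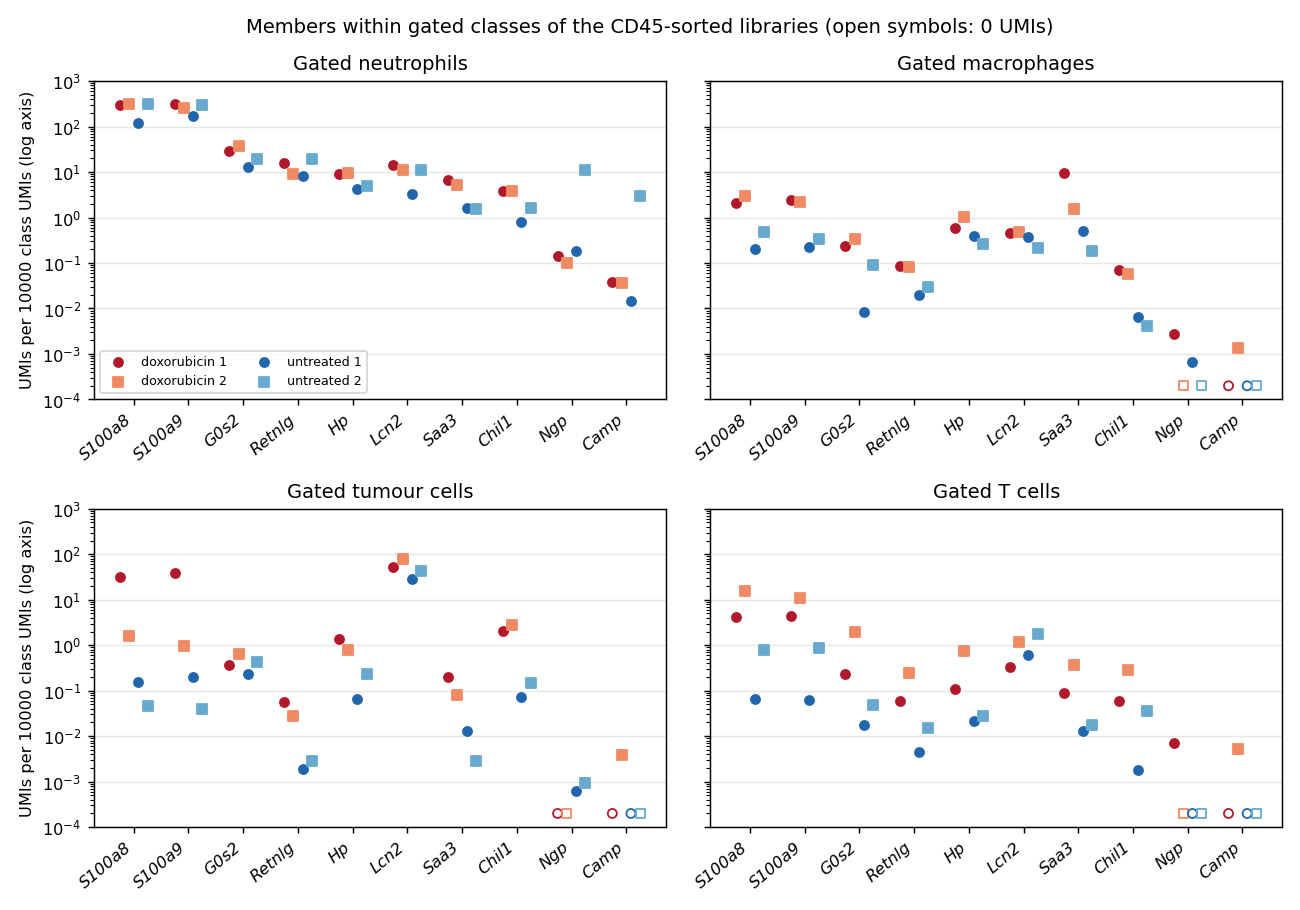
Level of each gene within gated neutrophils, macrophages, tumour cells and T cells of the 4 CD45 libraries, in UMIs per 10000 class UMIs on a log axis, with open symbols for 0 UMIs. S100a8 lies at 120 to 318 in neutrophils and at 0.199 to 2.93 in macrophages, and Lcn2 lies at 28.6 to 76.7 in tumour cells and at 3.37 to 14 in neutrophils.

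In gated macrophages, 4 of the 10 genes were called and all 4 rose (S100a9, S100a8, Chil1 and Retnlg). Ngp and Camp, with 0 or 1 UMI a library, did not reach the test. Of the 11645 genes tested in macrophages, 7.74% were called, 3.88% as risers and 3.86% as fallers. S100a9 stood at 2.39 and 2.23 UMIs per 10000 in doxorubicin macrophages and at 0.223 and 0.333 in untreated macrophages (3.00 ± 0.25, adjusted p = 0.00056). S100a8 stood at 2.09 and 2.93 with doxorubicin and at 0.199 and 0.475 untreated (2.85 ± 0.46, adjusted p = 0.0268). Chil1 changed by 3.46 ± 0.52 on 26 and 44 UMIs with doxorubicin and 10 and 4 untreated. Retnlg changed by 1.70 ± 0.37. The S100a8 and Chil1 calls were lost without doxorubicin library 1 or 2 (adjusted p = 0.143 and 0.177 for S100a8, 0.0714 and 0.0721 for Chil1). That of Retnlg was lost without doxorubicin library 1 or 2 or untreated library 1 (0.139, 0.147 and 0.0703). The S100a9 call held without each library in turn. When only genes at 0.1 or more of their highest class level were tested, these 4 genes were left out and no member was called.

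These macrophage levels were small parts of the neutrophil levels beside them. S100a8 in macrophages was 0.702% and 0.919% of its neutrophil level in the doxorubicin libraries and 0.166% and 0.154% in the untreated libraries. The mix of genes was set beside that of neutrophils. For each 100 S100a8 UMIs, macrophages held 4.06 and 2.85 Retnlg UMIs with doxorubicin and 10.1 and 6.32 untreated, and neutrophils 5.26 and 2.82 with doxorubicin and 6.98 and 6.43 untreated. For G0s2 the macrophages held 11.4 and 11.4 with doxorubicin and 4.25 and 19.0 untreated, and the neutrophils 9.78 and 11.6 with doxorubicin and 10.6 and 6.26 untreated. Under the stricter gate the untreated macrophages held 1.92 and 1.96 Retnlg UMIs for each 100 S100a8 UMIs, on 3 and 2 Retnlg UMIs in place of 31 and 29, so the untreated mix rests on cells near the edge of the gate. S100a9 made up 53.4% and 43.3% of the pair's UMIs in doxorubicin macrophages and 51.5% and 45.0% in the neutrophils of the same libraries. In the untreated libraries it was lower in macrophages, at 52.9% and 41.2%, than in neutrophils, at 58.7% and 49.8%. The 10 neutrophil markers summed to 6.97 and 4.60 UMIs per 10000 in doxorubicin macrophages and 4.41 and 4.51 in untreated macrophages, with 9 of 10 detected and Ly6g at 0 in each library. Those sums were 6.75% and 6.32% of the neutrophil sum with doxorubicin and 5.21% and 5.39% untreated, larger parts than for S100a8. The part of free neutrophil RNA in the macrophage calls was not tested.

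T cells are not known as a source of calprotectin and were read in the same way. S100a8 stood at 4.19 and 15.2 UMIs per 10000 in T cells of the doxorubicin libraries and at 0.0652 and 0.783 in those of the untreated libraries. In doxorubicin library 2, 65 of 393 T cells held 10 or more S100a8 UMIs, and in the other 3 libraries 2 of 113, 2 of 884 and 5 of 285 did. With only the cells under 10 UMIs counted, the T cell level was 0.990 and 0.683 with doxorubicin and 0.0359 and 0.0822 untreated. The 10 neutrophil markers summed to 4.99 and 6.63 in T cells of the doxorubicin libraries and 2.12 and 2.67 in those of the untreated libraries. These sums were 4.83% and 9.11% of the neutrophil sum with doxorubicin and 2.50% and 3.19% untreated. The part of neutrophil RNA in T cells was not tested. No member was called in T cells by edgeR, nor was any of the 10815 genes tested (0%), although 4 members and 774 genes had an unadjusted p under 0.05. DESeq2 called 4 members (Saa3, Hp, Retnlg and G0s2) and 60 genes.

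Saa3 and Hp in macrophages had another pattern. Saa3 stood at 9.52 and 1.51 UMIs per 10000 in doxorubicin macrophages and at 0.494 and 0.186 in untreated macrophages, which is 144% and 28.8% of the neutrophil level with doxorubicin and 30.4% and 12.4% untreated. A single macrophage of doxorubicin library 1 held 1683 of its 3479 Saa3 UMIs, with 16 of S100a8 and 0 of Retnlg. The change of 3.96 ± 1.37 did not pass (adjusted p = 0.252). Hp stood at 0.580 and 1.03 with doxorubicin and at 0.386 and 0.268 untreated (1.25 ± 0.30, adjusted p = 0.0515), and its macrophage level was 5.31% to 11% of the neutrophil level over the 4 libraries.

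In gated tumour cells 3 of the 10 genes were called, Chil1, Saa3 and Retnlg, and all 3 rose; Ngp and Camp, with 3 UMIs or fewer a library, did not reach the test. Of 13040 genes tested, 6.21% were called, 2.75% as risers and 3.46% as fallers. Chil1 stood at 2.07 and 2.78 UMIs per 10000 in doxorubicin tumour cells and at 0.0730 and 0.144 in untreated tumour cells (4.30 ± 0.38, adjusted p = 0.00495), and the call held without each library in turn. Its tumour cell level was 55.0% and 72.2% of the neutrophil level with doxorubicin and 9.26% and 9.13% untreated. At matched depth 13% and 12.3% of doxorubicin tumour cells and 0.670% and 0% of untreated tumour cells had a Chil1 UMI. In the doxorubicin libraries 3 of 98 and 6 of 258 tumour cells held 50% of these UMIs.

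The other called genes of tumour cells rest on few UMIs. Retnlg had 22 and 21 UMIs in doxorubicin tumour cells and 6 and 3 in untreated tumour cells (3.97 ± 0.69, adjusted p = 0.0212). Its call was lost without doxorubicin library 1 or either untreated library (0.0773, 0.0974 and 0.0557). Saa3 had 78 and 61 UMIs with doxorubicin and 40 and 3 untreated (3.77 ± 0.74, adjusted p = 0.0404), with 56 of the 78 in 1 cell, and the call was lost without doxorubicin library 1 (0.0960). Retnlg in tumour cells was at most 0.363% of its neutrophil level. The neutrophil markers summed to 1.93 and 0.894 UMIs per 10000 in doxorubicin tumour cells and 0.503 and 0.367 in untreated tumour cells. These sums were 1.86% and 1.23% of the neutrophil sum with doxorubicin and 0.594% and 0.438% untreated. The part of neutrophil RNA in these 2 calls was not tested.

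Calprotectin in tumour cells of doxorubicin library 1 was dominated by 1 cell. S100a8 stood at 31.3 and 1.56 UMIs per 10000 in doxorubicin tumour cells and at 0.153 and 0.0449 in untreated tumour cells, and S100a9 at 38.0 and 0.984 against 0.204 and 0.0403. The log2 changes of 7.21 ± 2.48 and 7.15 ± 2.93 did not pass (adjusted p = 0.257 and 0.310); without doxorubicin library 2 that of S100a8 did (0.0439). A tumour cell of doxorubicin library 1 held 9585 of 12131 S100a8 UMIs and 11296 of 14700 S100a9 UMIs. The same cell had 505 UMIs of Krt6a and 139 of Krt14, keratins of squamous and basal epithelium, 74 of Sprr1a, a cornified envelope gene, and 416 of Ltf. It had 0 UMIs of Retnlg, G0s2 and the neutrophil receptor Cxcr2. Without it S100a8 in that library stood at 6.57. In doxorubicin library 2 the tumour cell with the most S100a8 held 451 of 1191 S100a8 UMIs and 297 of 752 S100a9 UMIs. That cell had 223 UMIs of Ltf and 20 of Krt6a, and 0 of Krt14, Sprr1a, Retnlg, G0s2 and Cxcr2. Cells under 10 S100a8 UMIs gave 0.758 and 0.431 with doxorubicin and 0.0413 and 0.0449 untreated.

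Lcn2 was a tumour cell message in these tumours. It stood at 51.2 and 76.7 UMIs per 10000 in doxorubicin tumour cells and at 28.6 and 43.4 in untreated tumour cells (0.62 ± 0.27, adjusted p = 0.206). Although the groups did not overlap, the change did not pass. Tumour cells held 58.2% and 79.7% of the Lcn2 UMIs in the doxorubicin CD45 libraries and 89.1% and 85.3% in the untreated CD45 libraries, and neutrophils held 18.1% and 10.6% with doxorubicin and 0.463% and 0.779% untreated. At matched depth 89.1% and 93.7% of doxorubicin tumour cells and 79.6% and 90.5% of untreated tumour cells had an Lcn2 UMI, against 40.5% and 40.2% of doxorubicin neutrophils and 20.3% and 32.0% of untreated neutrophils.

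Hp in tumour cells stood at 1.38 and 0.780 UMIs per 10000 with doxorubicin and at 0.0654 and 0.238 untreated (2.68 ± 0.76, adjusted p = 0.131). The Hp change passed without untreated library 1 (1.98, adjusted p = 0.0356) or 2 (3.86, adjusted p = 0.0029). G0s2 there stood at 0.367 and 0.625 with doxorubicin and at 0.233 and 0.434 untreated, which overlapped.

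**Figure D4:**
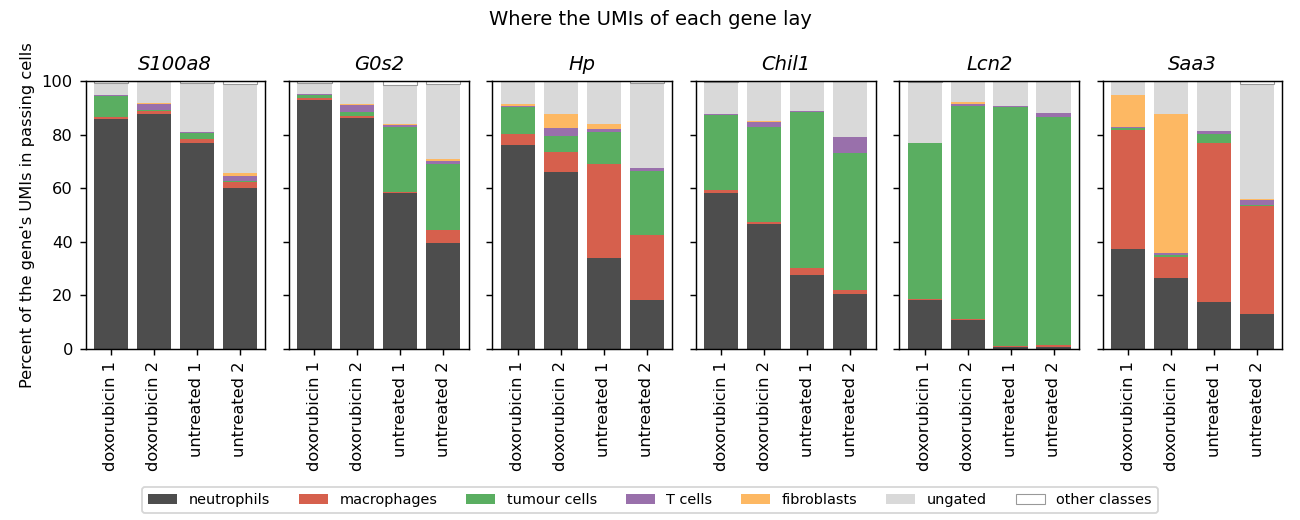
Percent of each gene's UMIs that lay in each class of the 4 CD45 libraries, as stacked bars that fill 100%; ungated cells passed the filter without a class. Neutrophils held 85.9% and 87.8% of S100a8 UMIs with doxorubicin and 76.8% and 60.0% untreated, and tumour cells held most of Lcn2 in each library.

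Whether a change differed between classes was tested as an interaction. The calprotectin genes and Retnlg changed less in neutrophils than in macrophages: the difference of log2 changes was -2.29 ± 0.36 for S100a8, -2.71 ± 0.36 for S100a9 and -1.88 ± 0.42 for Retnlg, with adjusted p-values of 0.000291, 3.65e-05 and 0.0132. Of 12029 genes, 1.59% were called for this difference, 0.507% with a larger and 1.08% with a smaller change in neutrophils. Macrophage levels of S100a8, S100a9 and Retnlg were 0.109% to 0.929% of the neutrophil level. The part of free neutrophil RNA in the macrophage changes, and in the tumour cell changes below, was not tested. The S100a8 call was lost without doxorubicin library 2 (adjusted p = 0.144) and that of Retnlg without doxorubicin library 2 or untreated library 2 (0.545 and 0.191). Against tumour cells the neutrophil change was smaller for Chil1 (-2.62 ± 0.37), Hp (-1.92 ± 0.40), Retnlg (-3.89 ± 0.56) and Saa3 (-1.74 ± 0.46). Camp was also called, on 3 UMIs or fewer a library in tumour cells, and no fold is given for it. Of 13470 genes, 3.49% were called for that difference, 1.08% with a larger and 2.41% with a smaller change in neutrophils. The Chil1 and Retnlg differences held without each library in turn. That of Hp was lost without doxorubicin library 1 or untreated library 1 (0.226 and 0.250), and that of Saa3 without doxorubicin library 1 or untreated library 2 (0.550 and 0.332). Without each member's highest cell the Saa3 difference was -0.88 (adjusted p = 0.416) and the call on Camp was also lost (0.788).

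Fibroblasts held a share of Saa3 that differed between libraries. In CD45 doxorubicin library 2, 112 gated fibroblasts (2.80% of cells) had 28.1 Saa3 UMIs per 10000, 534% of the neutrophil level, and held 51.9% of all Saa3 UMIs. Fibroblasts held 12.2% in CD45 doxorubicin library 1 and 0% and 0.223% in the untreated CD45 libraries. Neutrophils held 37.1% and 26.4% of Saa3 in the doxorubicin libraries and 17.6% and 12.9% in the untreated libraries, and macrophages 44.4% and 7.99% with doxorubicin and 59.4% and 40.2% untreated. The CD45 libraries doxorubicin 1, untreated 1 and untreated 2 held 5, 10 and 8 gated fibroblasts, too few for a level. In the T cell sorts, the fibroblast level was 65.7 after anti-PD1, 62.7 at 48 h after doxorubicin and 78.5 untreated, on 37, 50 and 20 cells. Over the 6 sorts fibroblasts held 68.6% of Saa3 UMIs after anti-PD1, 81.8% after anti-CTLA4, 0% after both, 53.9% after IgG, 60.3% at 48 h after doxorubicin and 95.1% untreated. In the pooled table fibroblasts held 0.571% of Saa3 UMIs and neutrophils 85.0%. The fibroblast level there was 2.98% of the neutrophil level, so the high fibroblast level of the sorted libraries was not seen.

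The T cell sorts allow no test, with 1 library a group, and their neutrophils are few. On 63, 20, 21, 29, 256 and 61 neutrophils, S100a8 stood at 294 UMIs per 10000 (exact Poisson 95% interval 284 to 304) after anti-PD1, 109 (102 to 118) after anti-CTLA4, 281 (269 to 293) after both, 255 (244 to 266) after IgG, 242 (238 to 245) at 48 h after doxorubicin and 329 (321 to 337) untreated. The intervals cover counting error only. Hp in tumour cells was higher in each of the 5 doxorubicin libraries, at 1.31, 2.09, 2.76, 2.85 and 3.05 UMIs per 10000 in the same order, than in the untreated library, at 0.185 (0.169 to 0.201). Chil1 in tumour cells was not, at 0.264, 0.385, 0.720, 0.505 and 1.73 with doxorubicin and 0.290 untreated. Lcn2 in tumour cells stood at 49.4, 45.0, 45.6, 54.2 and 70.1 with doxorubicin and 39.5 untreated. For Hp, Chil1 and Lcn2 the highest of the 5 doxorubicin libraries was the one taken at 48 h.

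The balance of the calprotectin pair differed between classes in these sorts. S100a9 made up 54.6% to 59.5% of the pair's UMIs in their neutrophils. In their macrophages it made up 2.11% (exact binomial 95% interval 1.13% to 3.58%) after anti-PD1, 5.41% (1.49% to 13.3%) after anti-CTLA4, 2.70% (0.0684% to 14.2%) after both, 6.31% (2.57% to 12.6%) after IgG, 31.9% (25.2% to 39.2%) at 48 h after doxorubicin and 40.7% (22.4% to 61.2%) untreated. After anti-PD1 this rests on 603 S100a8 UMIs in 143 of 674 macrophages against 13 S100a9 UMIs, with 0 Retnlg UMIs. Tumour cells of the T cell sorts had 12.6% to 30.9%. Under the stricter gate the value was 4.26% (0.520% to 14.5%) after anti-CTLA4, against 14.1%, and 6.16% (2.86% to 11.4%) after both, against 12.6%. The 4 libraries with macrophages under 10% are those taken after the antibody or IgG doses, which were also harvested later, so antibody, time and library cannot be told apart.

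**Figure D5:**
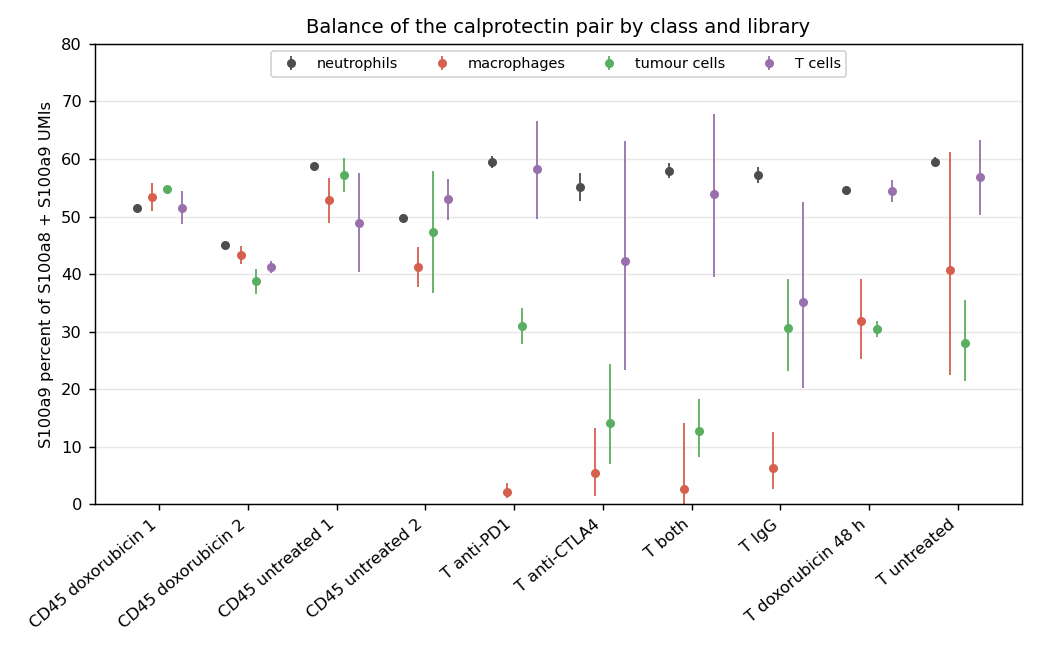
S100a9 as percent of S100a8 and S100a9 UMIs in gated neutrophils, macrophages, tumour cells and T cells of the 10 sorted libraries, with exact binomial 95% intervals. Neutrophils lie between 45.0% and 59.5% in every library, and macrophages of the 4 T cell sorts taken after antibody or IgG lie between 2.11% and 6.31%.

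The pooled tumour table held 1 sample for these purposes, since its 2 sets of 1508 and 2508 barcodes, with 0 barcodes in common, are not tied to a treatment by the labels. Neutrophils were 20.2% and 18.6% of these sets, with 287 and 199 S100a8, 3.57 and 1.18 Chil1 and 54.9 and 24.1 G0s2 UMIs per 10000. Tumour cells of the sets had 64.9 and 34.1 Lcn2, 1.26 and 0.226 Chil1 and 1.01 and 0.182 Hp UMIs per 10000. Set 1 was the higher for each of these, but not for every member. Retnlg in neutrophils stood at 8.91 in set 1 and 15.5 in set 2, and G0s2 in tumour cells at 0.552 and 0.649.

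Genes with related roles were read from lists. Their counts stand beside the 5.44% of all genes called in whole libraries, 1.05% in neutrophils, 7.74% in macrophages and 6.21% in tumour cells; at the neutrophil share, a count of 0 in a list of these sizes is near the background. Of 20 granule and maturation genes, 10 of 19 tested rose in whole libraries and none fell, among them Cd177, a neutrophil surface antigen (3.40 ± 0.26). None of 16 tested was called in neutrophils. In macrophages 5 of 15 rose, Anxa1, which encodes the anti-inflammatory annexin A1, by 1.68 ± 0.23. In tumour cells 4 of 12 rose, and lactoferrin (Ltf) stood at 4.30 and 8.93 UMIs per 10000 with doxorubicin and at 0.223 and 0.0983 untreated (5.13 ± 0.55, adjusted p = 0.00883).

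Of 24 further acute-phase genes, 6 of 16 tested rose in whole libraries and none of 9 was called in neutrophils. In tumour cells 4 of 12 rose and 2 fell. The risers there included ceruloplasmin (Cp), a copper-carrying ferroxidase, with 6.33 and 7.69 UMIs per 10000 with doxorubicin and 1.60 and 1.66 untreated (1.90 ± 0.22), the metalloreductase Steap4 (2.94 ± 0.36) and complement C3 (3.41 ± 0.44). The 2 that fell were the metallothioneins Mt1 and Mt2, which were named after their values were seen (-1.84 ± 0.28 and -1.76 ± 0.28). In macrophages 2 of 10 rose and 1 fell. The median log2 change of the list was 1.31 in whole libraries and -0.15 in tumour cells, and that of all genes was -0.02 and -0.01.

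Among 10 receptors and scavengers of these proteins, 6 of 9 tested rose in whole libraries, with Tlr4, a receptor for calprotectin, at 2.26 ± 0.19 and the formyl peptide receptor Fpr2 at 2.80 ± 0.25. In macrophages 3 of 8 rose, Cd36, a lipid scavenger, by 2.02 ± 0.26, in tumour cells 2 of 5, and in neutrophils none of 7. Of 18 inducers and regulators of the acute phase, 1 rose in whole libraries (Il1a, 2.14 ± 0.25), 2 of 16 fell in macrophages, with the cytokine signalling inhibitor Socs3 at -1.27 ± 0.21, 2 of 16 rose in tumour cells, with Tnf at 1.57 ± 0.23, and none of 16 was called in neutrophils. Other S100 genes numbered 13. Of these S100a11 was the only one of 12 called in whole libraries (1.03 ± 0.20), S100a6 (1.62 ± 0.21) and S100a11 rose among 10 in tumour cells, and none was called of 6 in neutrophils or 7 in macrophages. Of 7 chitinase-like and resistin genes, Retn rose (4.03 ± 0.52) among 4 tested in whole libraries, and none was called in the 3 classes. None of 7 tested lipolysis and lipid droplet genes was called in whole libraries or in the 3 classes. The 2 of that list with the highest level, Hilpda (0.86 ± 0.31) and Plin2 (0.78 ± 0.24), had adjusted p-values of 0.15 and 0.11 in whole libraries.

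The genes whose pattern was most like that of S100a8, G0s2, Lcn2, Saa3, Chil1 and Ngp were found over 44 sums of class and library, as the Pearson correlation of log2 levels among 6102 genes, with no test. The nearest to S100a8 were S100a9 (0.961), Il1f9 (0.938), Mirt2, Cstdc4 and Slfn4. Slfn4 is a neutrophil marker of the gate that made these classes, so its likeness was partly set by the gate. To G0s2 the nearest were Il1rap (0.943), Retnlg, Stfa2l1, Mboat7 and Cstdc4. Genes near Lcn2 included the epithelial transcription factors Klf5 (0.952) and Ehf (0.902), with Tmc4 and Phlda1. Saa3 was nearest to Ltc4s (0.886), Pttg1ip, Irak3, Gda and Rbms1, and Chil1 to Asprv1 (0.892), Il23a, 4632427E13Rik, Slpi and Egln3. For Ngp, with few UMIs, they were Ddit3 (0.824), Mrgpra2b, Ccnl1, Gm20406 and Retnlg.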

How the data were processed

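Per the file headers, the deposited matrices of UMI counts were written by Cell Ranger 6.0.0; the build is GRCm38 (mm10), per the labels. The pooled tumour table holds counts from Cell Ranger merged with Seurat, per the submitters' processing notes, with versions not given in the sources used here. The matrices name no rows, so names were taken from the order of the pooled table; row totals correlated at 0.954 to 0.984 in that order and at 0.354 or less when shifted by up to 50 rows. Counts were summed per library, or per gated class, and tested with edgeR 4.0.16 (TMM, default filter on low counts, robust quasi-likelihood fit, Benjamini-Hochberg over all genes tested, 0.05), on 2 against 2 libraries; interactions had library as a block. DESeq2 1.42.0 was an alternative. A cell's class was the one of 12 with the largest fraction of its markers detected, at least 0.3 and 0.15 above the next; these thresholds were set after the data were seen. No doublet caller was run; cells with near-equal marker fractions of 2 classes stayed ungated. The fits were tested on simulated data. Of genes simulated with a log2 change of 1, 5.15% were called in whole libraries and 8.33% in neutrophils. The shares were 31.3% in macrophages and 14.6% in tumour cells. At a log2 change of 2 they were 65.3%, 75%, 89.9% and 91.7% in the same order. Of all calls, 1.43%, 1.23%, 4% and 6.42% in that order were on unchanged genes. Every simulated gene of a class had the same dispersion, a measure of spread between libraries. The shares therefore do not describe genes of larger or smaller spread, and the members differ in spread. The members, marker lists and gene lists were chosen with earlier results of these data known. All members were named, and of each list the 3 genes with the smallest adjusted p among those called in whole libraries, neutrophils, macrophages or tumour cells, or the 2 with the highest mean level where none was called. Likeness used sums of at least 30 cells and genes at a mean of 20 CPM or more; 1 gene it named is not reported here. A bulk table with 12 columns that match no sample was not used here. Alternatives were other normalization, filters, gates, a replicate term and leaving out each library; 1 more, each member without its highest cell, was added after the data were seen. R 4.3.3, Python 3.11.15, numpy 2.4.6, scipy 1.17.1, pandas 2.3.3 and matplotlib 3.10.9 were used. The smallest p of the exact permutation test is 0.333. Intervals cover counting error only.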

Additional observations from a re-analysis of the deposited data

Results flagged for a closer look

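The change with doxorubicin differed between classes of the same CD45 libraries for 8 pairs of gene and class, each by a test of the interaction itself; 1.59% of all genes tested were called against macrophages and 3.49% against tumour cells. Camp against tumour cells is 1 of the 8 and has no fold, with 3 UMIs or fewer a library in tumour cells. Against macrophages, the log2 change in neutrophils was lower by these differences: -2.29 for S100a8, -2.71 for S100a9 and -1.88 for Retnlg. Macrophage levels of these 3 genes were between 0.109% and 0.929% of the neutrophil level in the 4 libraries. Against tumour cells the differences were -2.62 for Chil1, -1.92 for Hp, -3.89 for Retnlg and -1.74 for Saa3. Of these, Chil1 in tumour cells rested on 802 and 2123 UMIs with doxorubicin and 229 and 154 untreated. Retnlg rested on 22 and 21 UMIs with doxorubicin and 6 and 3 untreated. The part of free neutrophil RNA in the differences from either class was not tested.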

How the results depend on the processing

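The same 7 members were called in whole libraries under every alternative, except without untreated library 1, which left 6. Within neutrophils, where 1 was called, there were 2 under DESeq2, 2 with no filter on low counts and 4 with a replicate block (Saa3, Chil1, Ngp, Camp), and 1 to 2 without each library. The replicate numbers were not taken as pairs, since no label ties same-numbered libraries together. Over genes, the difference between libraries 1 and 2 correlated between the groups at 0.254 in whole libraries and 0.0251 in neutrophils. A single such value cannot decide whether same-numbered libraries share a batch. With the replicate block 1412 genes were called in whole libraries, against 875, and 365 in neutrophils, against 95. Macrophages gave 0 of 1 tested when genes under 0.1 of the highest class level were left out, and 1 to 6 without each library, against 4. Tumour cells gave 6 under DESeq2 and 1 of 2 tested under that filter, and 1 to 4 without each library, against 3. T cells gave 4 under DESeq2, 2 with no filter and 4 with the replicate block, and 0 to 5 without each library, against 0. The interaction with macrophages called 5 under the stricter gate, against 3; that with tumour cells called 3 without each member's highest cell and 3 to 6 without each library, against 5. The difference in neutrophil share was 32.8 points under the stricter gate, and the median share part was 40.3% or 79.2% at untreated or doxorubicin levels.

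Changes of sign were seen in values that were not called before an alternative was applied. Under the stricter gate, log2 changes in neutrophils were -0.073 for S100a8 and -0.28 for S100a9, that of Lcn2 in T cells was 1.02, and the Lcn2 interactions were -0.21 with macrophages and -0.036 with tumour cells. Without the highest cell, Lcn2 in T cells was 0.34, and the interactions were 0.010 for Hp and 2.69 for Camp with macrophages and 1.26 for Ngp with tumour cells. Ranges without each library were -2.09 to 0.59 for Ngp and -1.67 to 1.85 for Camp in whole libraries; -0.22 to 1.43 for S100a8, -0.29 to 0.83 for S100a9, -0.031 to 1.95 for Lcn2, -0.88 to 0.64 for Retnlg and -6.51 to 1.41 for Camp in neutrophils; -0.034 to 0.88 for G0s2 in tumour cells; -1.76 to 0.14 for Lcn2 in T cells; -1.05 to 1.72 for Lcn2 and -0.76 to 0.29 for Hp in the macrophage interaction; and -0.37 to 1.02 for Lcn2 and -4.45 to 1.87 for Ngp in the tumour interaction. The cause was not tested. Neutrophil values of untreated library 2 rest on 109 cells.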
